A study of Eohaustorius estuarius with 16 samples.

Results

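The 100 contigs described here are those whose transcript level spread most among amphipods exposed to cyfluthrin relative to their spread among unexposed ones. They were chosen from 6186 contigs out of 8507 on the array, by the ratio of the standard deviation (SD) over cyfluthrin replicates 2 to 8 to the SD over the 8 control arrays. A contig could be chosen when it had 1 or 2 spots per array and every spot was well above background on all 16 arrays. The SDs, and every other measure of the cyfluthrin and control arrays that follows from them, therefore chose the members and are given as descriptions, without a test.

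A contig is an assembled stretch of transcript, and these are known by number only: the files give them no gene name, function or sequence. Levels are log2 processed signals relative to the 75th percentile of the same array, so a level of 0 equals that percentile and 1 unit is a doubling. Total RNA came from whole bodies of Eohaustorius estuarius, kept for 10 days in sediment spiked with cyfluthrin at a nominal 1.6 µg/kg (8 arrays) or with solvent alone (8 arrays), and laboratory B labelled it with Cy3 and hybridised it. Per the design text the extracts derive from 8 controls and 8 exposed animals. Whether each came from a single animal, and how animals were housed, is not in the labels, and the p-values measure only the spread between these samples. In RNA from whole bodies, fewer cells of a type and less RNA per cell cannot be told apart.

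Eohaustorius estuarius is a burrowing amphipod of estuarine sand that is widely used in tests of sediment toxicity. Cyfluthrin is a pyrethroid insecticide: pyrethroids keep the voltage-gated sodium channels of arthropod nerve cells open for longer, which leads to repetitive firing, and crustaceans are sensitive to them. A mean over exposed animals can hide a response that is strong in some and weak or opposite in others. The spread of a transcript among exposed samples can hold such differences. It also holds differences between samples apart from the exposure and differences between arrays and spots, and the part of each was not tested.

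The arrays were similar in brightness in both groups. Their 75th percentile of processed signal ran from 467 to 768 (median 612) in control and from 463 to 796 (median 654) with cyfluthrin, and 82.5% to 92.8% and 80.6% to 95.4% of contig spots were well above background. The arrays lay on 2 slides, replicates 1 to 4 of both groups on slide 1 and replicates 5 to 8 on slide 2. On slide 1 the control arrays lay in row 2 and the cyfluthrin arrays in row 1, and on slide 2 the other way round. Within a slide, treatment and row of arrays thus cannot be told apart. Of the 4506 contigs with 2 spots that could be chosen, 7 to 32 had spots at least 1 log2 unit apart on a control array, against 1 to 102 on a cyfluthrin array. Cyfluthrin replicate 4 was the array with 102.

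The members had a median SD ratio of 3.69, from 3.10 to 8.85. The median over all contigs that could be chosen was 1.21, and 68.7% of them had a ratio above 1. Both SDs contributed: the members' median SD was 0.11 log2 units in control against 0.25 for all contigs, and 0.40 with cyfluthrin against 0.31 for all contigs. For 87 members the control SD lay below the lower quartile of all contigs, while for 44 the cyfluthrin SD lay above the upper quartile. The members are thus mostly transcripts that were unusually steady in control animals and spread moderately more than most in exposed ones. They were also more abundant than most, with a median control level of -0.085 against -0.97. The ranking had no gap at its end: contig_6224, the last member, had a ratio of 3.104 and contig_2338, the first contig left out, one of 3.103.

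**Figure D1:**
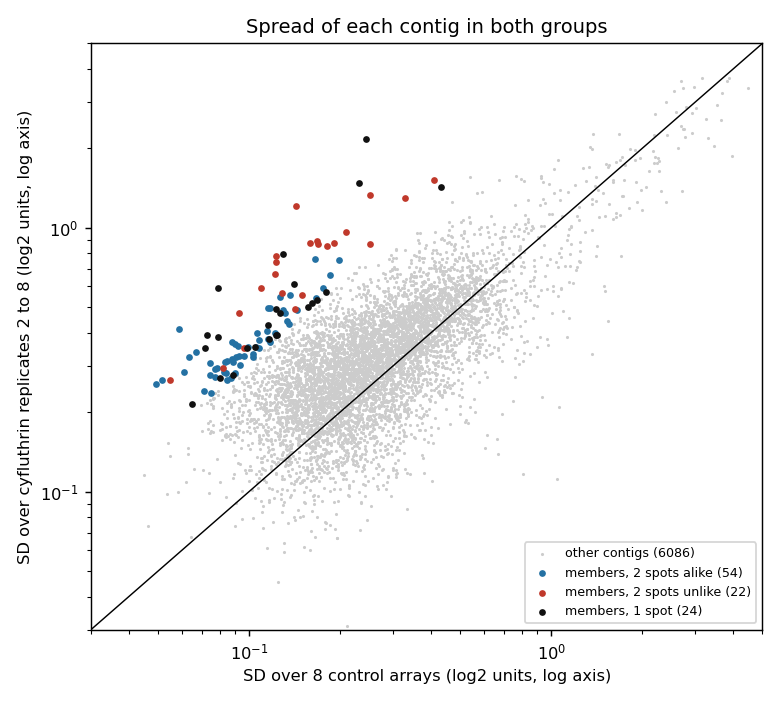
Each point is a contig, with its SD over the 8 control arrays on the horizontal axis and its SD over cyfluthrin replicates 2 to 8 on the vertical axis, both in log2 units on log axes; the line marks equal SDs. The 100 members (coloured by whether their spots were alike) lie along the upper left edge of the 6086 other contigs, at a ratio of 3.10 or more.

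The spread of most members went both ways. On cyfluthrin replicates 2 to 8, 74 members lay above the whole control range on some arrays and below it on others, which 23.7% of all contigs did. Another 9 members left it only upwards and 17 only downwards. The choice favours narrow control ranges and a wide spread on these same arrays, so nothing is read from these counts. The array farthest from a member's mean was replicate 4 for 29 members, when it was so for 16.4% of all contigs. It was replicate 6 for 21 (20.2% of all), replicate 3 for 18 (17.4%) and replicate 2 for 15 (17.7%), close to the shares of all contigs. For the other 17 it was replicate 5 (6 members, 9.38% of all), replicate 7 (6 members, 6.39%) or replicate 8 (5 members, 12.5%). A single array held over 70% of the variance over these 7 arrays in 26 members, against 5.01% of all contigs. The choice by SD over these same arrays favours contigs with an array far from the rest, so nothing is read from these shares.

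For the members with 2 spots per array, the spots were compared on the array that held most of the variance. The ratio averages the spots and does not use their difference, but a departing spot moves that average. The choice by ratio thus favours contigs with unlike spots, and nothing is read from their share. The comparison of spots and its limit of 1 log2 unit were chosen after seeing the data. Of 76 such members, 54 had spots that lay alike, at a median of 0.057 and at most 0.72 log2 units apart. The other 22 had spots 1.72 to 6.77 units apart (median 3.74). Spots at least 1 unit apart on the farthest array were found for 2.29% of all contigs with 2 spots. Of the 72 contigs with 2 spots among the 100 lowest ratios, 7 had such spots on their farthest control array. In the 22 members the spot farther from its own control mean was 4.01 units away (median of sizes) and the other spot 0.34 units; in the 54 members the same distances were 0.60 and 0.51.

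**Figure D2:**
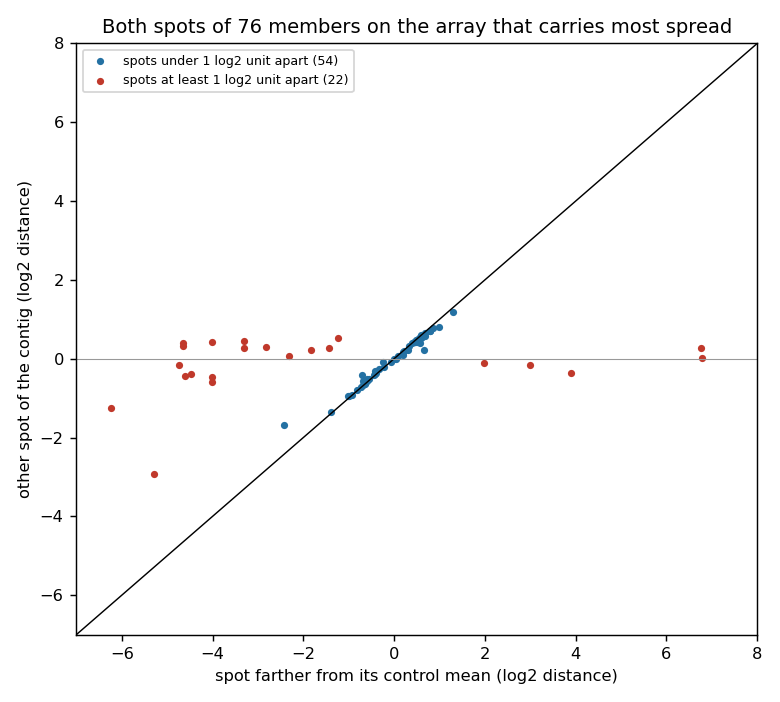
Each point is a member with 2 spots per array, on the cyfluthrin array that holds most of its variance; the axes give the log2 distance of each spot from its own mean over the 8 control arrays, the farther spot on the horizontal axis, and the line marks equal distances. The 54 members with spots under 1 unit apart lie along the line, and most of the 22 others lie near 0 on the vertical axis while their farther spot reaches from -6 to nearly 7.

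The 22 members with unlike spots were found on few arrays and often in the same places. Their farthest array was replicate 4 for 8, replicate 3 for 6, replicate 2 for 5, replicate 8 for 2 and replicate 7 for 1, and the spot that departed was the lower of the pair in 17 and the higher in 5. On an array of 192 rows and 82 columns, 17 of the 22 departing spots lay within 5 rows and 5 columns of another member's departing spot on the same array. On replicate 4, 5 of them stood in rows 106 to 109 and columns 65 to 67, and 2 in rows 185 and 186 of column 13. On replicate 3, 4 stood in columns 10 to 16, each within 5 rows of the next, and 2 side by side in row 50. On replicate 2, 4 stood in rows 165 to 172 and columns 56 and 57. The other spot of each of these pairs lay elsewhere on the array. The part that the position of a spot plays in these levels was not tested.

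Several of the highest ratios rest on 1 spot. The highest ratio, 8.85, was that of contig_2155, measured by 1 spot. Its control levels ran from 0.72 to 1.40 (median 1.11), and its cyfluthrin levels from -4.46 on replicate 3 to 1.47 (median 1.21), with the other 7 arrays at 0.98 or more. Only replicate 3 lay far outside the control range, by more than 5 log2 units, and 2 arrays lay slightly above it. That spot stood in row 103 and column 12, 1 column from the departing spot of contig_5556 on the same array. Without replicate 3 the SD ratio was 0.72.

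The ratio of contig_4055, at 8.49, came from replicate 8. Its control levels ran from -0.96 to -0.46 (median -0.75) and its cyfluthrin levels from -0.56 to 2.76 (median -0.39), where only replicate 8 exceeded -0.26. On that array its spots read 6.01 and -0.48. Taken alone, they gave SD ratios of 16.6 and 0.56. In all, 5 of the 8 cyfluthrin arrays lay above the control range for this contig, 4 of them at -0.39 to -0.26.

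Replicate 4 carried the spread of contig_6500 and contig_5929. The single spot of contig_6500, in row 189 and column 13, read -4.11 on replicate 4 and -1.76 on replicate 1, against -0.71 to -0.02 on the other 6 cyfluthrin arrays and -0.52 to 0.11 in control (median -0.30). Its ratio of 6.39 became 1.23 without replicate 4. The SD of contig_5929 over cyfluthrin replicates 2 to 8 was 1.52, the second highest after the 2.17 of contig_2155. Its level was -3.35 on replicate 4 and between 0.55 and 0.76 on the other 7 cyfluthrin arrays, inside the control range of -0.13 to 1.28 (median 0.83). Both of its spots were low on replicate 4, at -4.43 and -2.27. Without replicate 4 its ratio was 0.20, so that its levels were closer together with cyfluthrin than in control.

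A ratio above 2 was kept by 72 members whichever of replicates 2 to 8 was left out, while 18 members fell under 1.5 without 1 array and 7 under 1. Within an array, the members with alike spots had a median SD between spots of 0.045 log2 units in control and 0.046 with cyfluthrin. For all contigs with 2 spots it was 0.053 and 0.051. These members were picked for alike spots and a high cyfluthrin SD, so no comparison is drawn between the 2 kinds of SD.

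The steadiest of the high ratios was that of contig_8280, an abundant transcript with 2 spots. Its control levels lay between 2.84 and 3.004 (median 2.97), and its cyfluthrin levels between 2.57 and 3.72 (median 3.30). Replicates 1 to 5 and 8 lay above all control arrays, replicate 6 lay below them and replicate 7 among them. The ratio was 7.10, its spots alone gave 6.33 and 7.10, and with any 1 array left out it was at least 5.32. The transcript of contig_531, measured by 1 spot, ranged from 4.28 to 4.48 (median 4.34) in control and from 3.47 on replicate 1 to 4.89 on replicate 4 (median 4.09) with cyfluthrin; its ratio was 5.39, and at least 4.20 with 1 array left out. For contig_1774 the control levels ran from 1.77 to 1.91 (median 1.83) and the cyfluthrin levels from 1.28 on replicate 2 to 2.05 on replicate 4 (median 1.53), with a ratio of 5.12 and at least 4.07. All 3 contigs had cyfluthrin arrays on both sides of the control range.

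The 1-spot contig_2352 had the third highest ratio, 7.45. Its control levels ran from 0.57 to 0.77 (median 0.70). Its cyfluthrin levels ran from -0.16 on replicate 7 to 1.57 on replicate 2 (median 1.103), and every cyfluthrin array except replicate 7 lay above the control range. Replicate 7 held 72.0% of the variance, and without it the ratio was still 3.26.

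**Figure D3:**
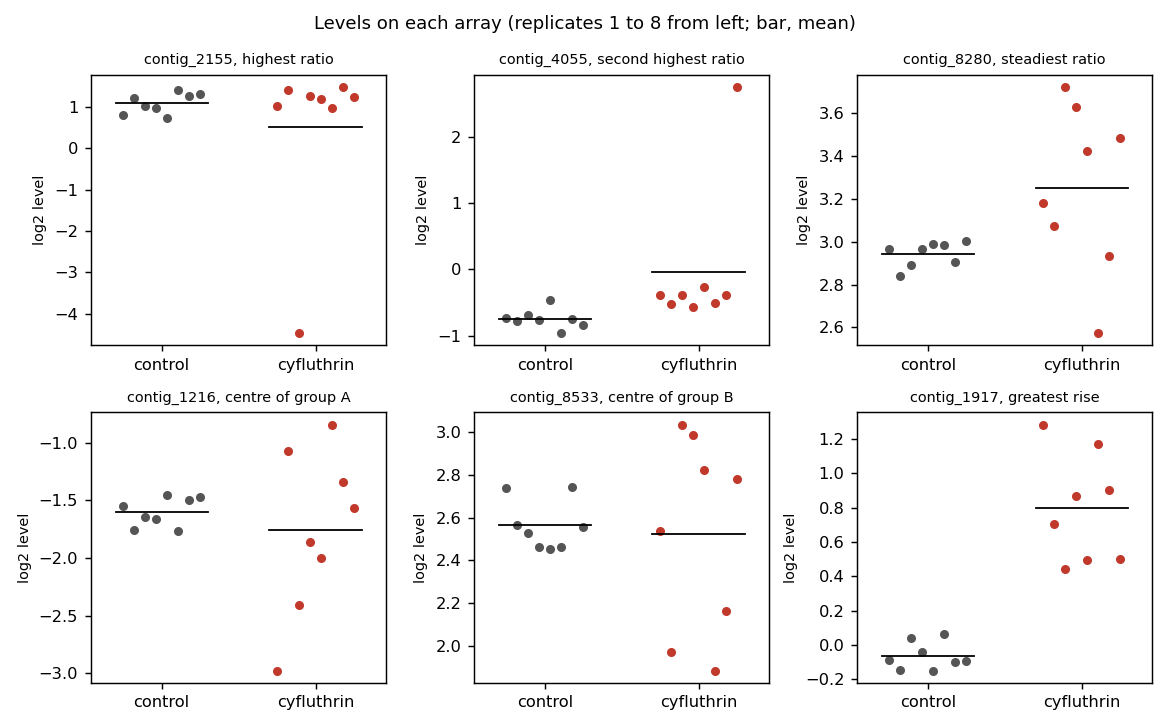
Levels of 6 members on each array (log2 signal relative to the 75th percentile of the array), with replicates 1 to 8 from left to right in each group and a bar at the mean. In contig_2155 and contig_4055 a single cyfluthrin array stands apart, while in contig_8280, contig_1216 and contig_8533 the cyfluthrin arrays spread to both sides of the control arrays and in contig_1917 all 8 lie above them.

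Members were grouped by the correlation of their levels over cyfluthrin replicates 2 to 8 (average linkage on 1 minus Pearson's r, tree divided at 0.5). This gave 4 groups of at least 8 members, here called A to D, with 70 members in all; the other 30 members fell into 11 smaller groups. Since the groups were formed from these levels, their profiles are descriptions. Groups A and B, with 25 and 24 members, held 0 members with unlike spots among the 19 and 16 that have 2 spots, against 8 of 10 in group C and 4 of 9 in group D.

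Groups A and B were near mirror images of each other. Relative to the 75th percentile, group A was high on replicate 2 (median log2 distance from the control mean 0.52, with 23 of 25 members above it), replicate 6 (0.51, 22 of 25) and replicate 7 (0.34, 16 of 25), and low on replicate 3 (-0.30, 18 of 25 below) and replicate 5 (-0.24, 19 of 25 below). Group B was low on those same 3 arrays, replicate 6 (-0.44, 22 of 24 below), replicate 2 (-0.31, 20 of 24) and replicate 7 (-0.25, 18 of 24), and high on replicate 4 (0.52, 22 of 24 above), replicate 3 (0.30, 19 of 24) and replicate 5 (0.25, 18 of 24, but -0.19 with spike-in scaling). On replicate 7, group B had no direction under quantile normalization (median -0.076, 12 of 24 below) or in the authors' value table (-0.057, 12 of 24). Its low medians moved on the other arrays too: that on replicate 2 was -0.12 under quantile normalization and in the authors' table, and that on replicate 6 was -0.10 with spike-in scaling. The medians of group A on replicates 2, 3, 5, 6 and 7 kept their sign under quantile, median and spike-in scaling, normexp correction and in the authors' table. The mean levels of groups A and B over these 7 arrays had r = -0.85. On the control arrays, the group medians stayed within 0.10 of 0.

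Transcripts of group A were mostly less abundant than those of group B, with median control levels of -1.15 and 0.89. Within the groups, pairs of members had a median r of 0.69 in A and 0.81 in B over the 7 cyfluthrin arrays, which the grouping sets, and of 0.025 and 0.13 over the 8 control arrays, which it does not use. Since the groups were formed on the former arrays, a lower r on the others follows from the choice, and no comparison is drawn between them. Every member of both groups kept a ratio above 2 with any 1 of the 7 arrays left out. All 25 and all 24 had a ratio above 1 on each slide taken alone. The same arrays chose the members, so nothing is read from these counts.

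The centre of group A, the member with the highest mean correlation with the rest, was contig_1216. Its control levels ran from -1.77 to -1.45 (median -1.60) and its cyfluthrin levels from -2.98 on replicate 1 to -0.84 on replicate 6 (median -1.71); 3 cyfluthrin arrays lay above the control range and 4 below. For contig_8533, the centre of group B, control levels ran from 2.45 to 2.74 (median 2.54) and cyfluthrin levels from 1.89 on replicate 6 to 3.03 on replicate 3 (median 2.66), with 4 arrays above the control range and 3 below. The difference in mean between the groups was past the threshold for neither contig: for contig_1216 the change was -0.16 log2 units (SE 0.24, limma adjusted p = 0.80), and for contig_8533 it was -0.042 (SE 0.16, limma adjusted p = 0.93).

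**Figure D4:**
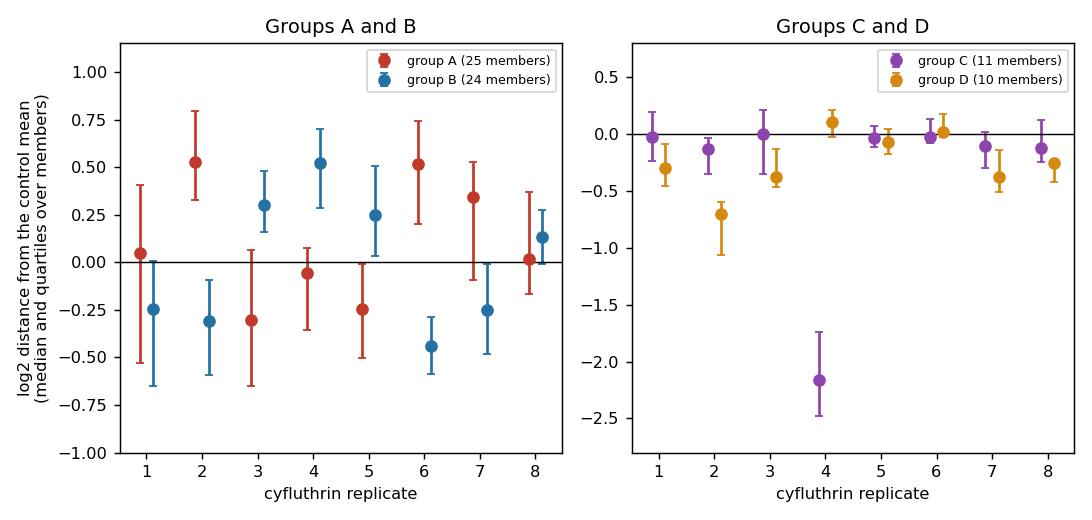
Median log2 distance from the control mean over the members of each group (points) with quartiles over members (bars), for cyfluthrin replicates 1 to 8; replicate 1 was used neither by the ratio nor by the grouping. Groups A and B lie on opposite sides of 0 on all replicates except 8 in this scaling (spike-in scaling put both below 0 on replicates 1 and 5, and normexp both above 0 on replicate 4), and group C is at -2.17 on replicate 4 and between -0.13 and 0 on the others.

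The contrast between groups A and B was shared by contigs outside the members. The mean level of group A minus that of group B was taken as an axis over cyfluthrin replicates 2 to 8. Of the 6186 contigs, 1052 (17.0%) followed it with r above 0.8 in size, 434 in the direction of A and 618 of B. They include 31 members, from which nothing is read, since the axis was built from members. The 1021 others had a median SD of 0.22 over the control arrays, one of 0.32 over the cyfluthrin arrays and a median ratio of 1.41. Over all contigs that could be chosen these medians were 0.25, 0.31 and 1.21. The members were chosen for a low control SD, so a higher one in the 1021 others follows from the choice. These correlations are over 7 arrays that share the same labelling and scaling. Of the measures of the arrays, the axis had r = -0.66 with the level of the spike-in probes (after scaling), over the same 7 arrays. With the 75th percentile it had r = -0.011, and with the share of spots above background r = 0.13. With the log2 10th percentile relative to the 75th it had r = 0.22. By construction, scaling an array by 1 factor leaves the difference between A and B as it is, but it moves the SD of each contig. With spike-in scaling the median ratio of group A was 2.11 in place of 3.68 and that of group B 1.31 in place of 3.52, when that of all contigs was 1.196.

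Group C was low on a single array. On replicate 4 its median distance from the control mean was -2.17 (-1.26 after normexp correction), while on the other 7 cyfluthrin arrays the median lay between -0.13 and 0. In 8 of the 11 members the 2 spots were unlike there: the departing spots lay -5.28 to -1.84 from their control means, and the other spots -2.94 to 0.45, with 4 of the 8 above. All 11 members lay below their control range as averaged, against 9 below and 1 above in the authors' value table. For contig_3234, named after its values were seen, replicate 4 at -1.793 was barely under the lowest control array at -1.785, and its other 7 cyfluthrin arrays lay above all control arrays. The centre of group C was contig_5929, described above. Group D was low on replicate 2 (median -0.70, all 10 members below the control range as averaged, and 8 below and 1 above in the authors' table). In 4 of the 10 the spots were unlike on that array, with the other spot -1.25 to 0.26 from its control mean. The median was also low on replicate 7 (-0.38), replicate 3 (-0.37) and replicate 8 (-0.25). On replicate 1, which neither the ratio nor the grouping used, it was -0.29, with 6 of 10 members below the control range. Of all 100 members 43 lay below it there, and of all contigs 36.0%, so nothing is read from that count. The centre of group D, contig_1382, ranged from 0.35 to 0.57 (median 0.47) in control. With cyfluthrin it ranged from -0.17 on replicate 2 to 0.63 on replicate 4 (median 0.22). There, 5 of the 8 cyfluthrin arrays lay below the control range and 1 above it.

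**Figure D5:**
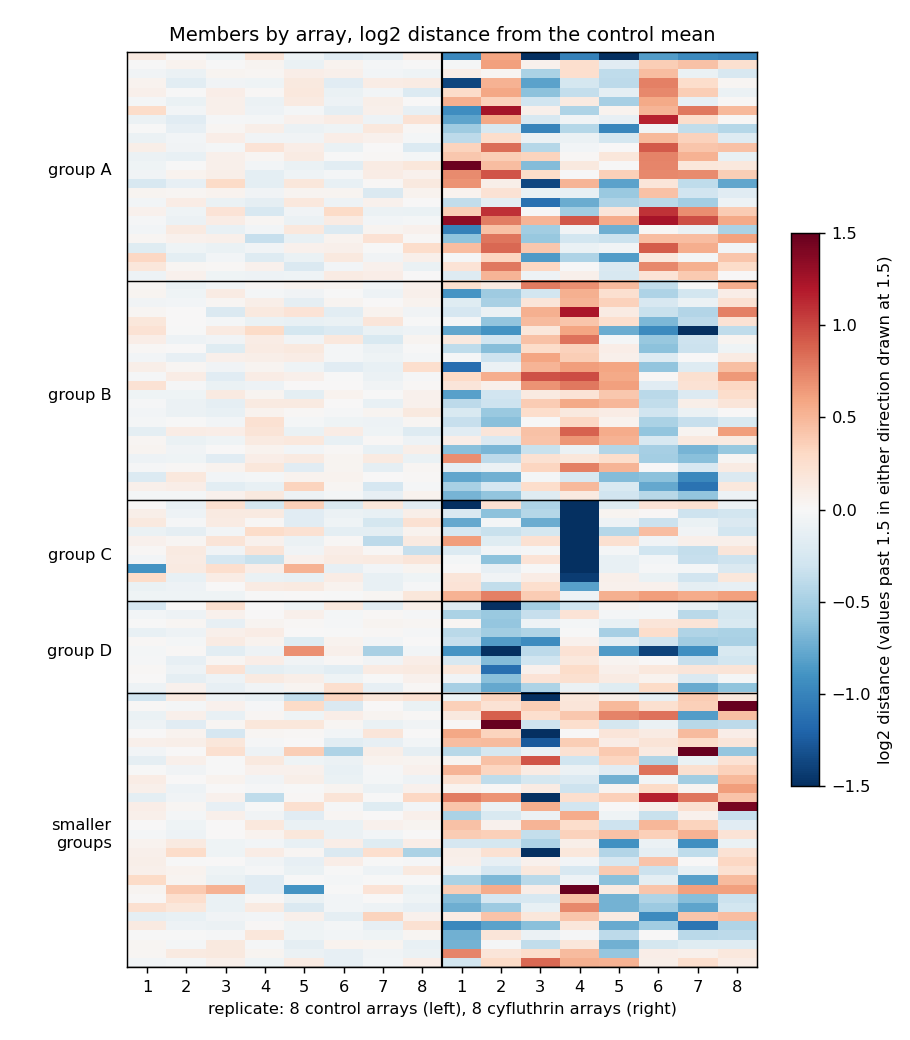
The 100 members (rows, by group and then by SD ratio) on the 8 control and 8 cyfluthrin arrays (columns), coloured by log2 distance from the member's control mean; values past 1.5 in either direction are drawn at 1.5. The control columns are pale throughout, groups A and B mostly change colour oppositely from array to array in this scaling, and most of group C is dark on cyfluthrin replicate 4.

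The first principal component held 44.3% of the members' variance over cyfluthrin replicates 2 to 8 (each contig scaled to an SD of 1) and 22.8% over the control arrays. Over all contigs that could be chosen the shares were 34.1% and 32.0%. For the 54 members with alike spots they were 53.5% and 24.5%. The members were chosen for a low control SD and a high cyfluthrin SD. The shares also rest on 7 cyfluthrin and 8 control arrays, so nothing is read from their difference.

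Cyfluthrin replicate 1 took no part in the choice. On it, 72 members lay outside their control range, 29 above and 43 below, when 52.9% of all contigs did, 16.9% above and 36.0% below. Their distance from the control median was no greater than that of other contigs, however, with a median of 0.37 log2 units for the members and 0.38 for all contigs. The higher count goes with the narrower control ranges of the members. Of the 7 arrays that were used, the members' median distance exceeded that of all contigs most on replicate 6 (0.37 against 0.26) and replicate 4 (0.30 against 0.22), and was smaller on replicate 8 (0.24 against 0.27). On replicate 1, groups A and B had medians of 0.048 and -0.24, with quartiles from -0.53 to 0.41 and from -0.65 to 0.0071: members of group A lay on either side, 12 above the control range and 10 below.

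The ratio was above 1 for all 100 members on slide 1 (3 cyfluthrin against 4 control arrays) and for 88 on slide 2 (4 against 4). Of all contigs, 67.3% and 56.4% had such a ratio. The slides hold the arrays that chose the members, so high counts follow largely from the choice, and nothing is read from them. The difference between slides held a median of 12.4% of a member's variance over the 7 cyfluthrin arrays and 6.03% of that of all contigs.

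The means of the members were compared in the fit over all tested contigs. By limma, at an adjusted p under 0.05, 4 members were higher with cyfluthrin and 7 were lower. In the same fit 281 of all 7574 tested contigs were higher (3.71%) and 278 were lower (3.67%), and of the contigs that could be chosen 4.25% were higher and 4.36% lower. The log2 changes of these members were 0.49 to 0.86 and -0.96 to -0.44, and the median over all members was -0.032. Since a contrast of the same arrays chose the members, nothing is read from these counts. The fit also takes 1 variance per contig for both groups, while the members were chosen for unequal SDs. All limma p-values given for members are therefore approximate, and values close to the threshold do not settle a call.

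The greatest rise among the members was that of contig_1917, with 1 spot. Its control levels ran from -0.15 to 0.06 (median -0.09) and its cyfluthrin levels from 0.44 to 1.28 (median 0.79), with no overlap. This was a 1.82-fold rise in mean (log2 change 0.86, SE 0.12, limma adjusted p = 0.000245; 5.8e-05 to 0.027 over 28 alternatives). It was the single member with all 8 cyfluthrin arrays above all 8 control arrays, a pattern found in 1.23% of all contigs that could be chosen; 0 members, and 0.921% of all, had all 8 below. Its exposed levels still differed 3.37 times as much as its control levels by SD, in the pattern of group A.

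The next greatest rise was that of contig_4768, in group B. Its control levels ran from 0.43 to 0.72 (median 0.59) and its cyfluthrin levels from 0.62 on replicate 6 to 1.58 on replicate 4 (median 1.16), so that 7 of 8 arrays lay above the control range; its mean rose by 0.53 log2 units (SE 0.13, limma adjusted p = 0.018). The call was lost under median scaling (limma adjusted p = 0.068), spike-in scaling (0.098), normexp correction (0.27) and the replicate block (0.051). The greatest fall was that of contig_2001, with 1 spot, from control levels of -1.32 to -0.96 (median -1.17) to cyfluthrin levels of -3.01 to -0.55 (median -2.13). On 7 of the 8 arrays it lay below the control range and on replicate 2 above it (log2 change -0.96, SE 0.25, limma adjusted p = 0.026). For contig_7194, also with 1 spot, control levels ran from -0.38 to -0.02 (median -0.30) and cyfluthrin levels from -1.34 to -0.09 (median -0.94). Only replicate 4, at -0.09, lay within the control range (log2 change -0.63, SE 0.14, limma adjusted p = 0.013). Both calls were lost under spike-in scaling (limma adjusted p = 0.071 for contig_2001 and 0.061 for contig_7194) and normexp correction (0.40 and 0.14). That of contig_2001 was also lost with the replicate block (0.052), and without control replicate 4 (0.052), control replicate 8 (0.0503) or cyfluthrin replicate 5 (0.051).

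Contigs on either side of the limit of the ranking had nearly the same ratio. The last member, contig_6224, ranged from 3.83 to 4.10 (median 3.93) in control and from 3.25 to 4.09 (median 3.60) with cyfluthrin, and 6 arrays lay below the control range. The first contig left out, contig_2338, ranged from -2.53 to -2.18 (median -2.45) in control and from -2.97 to -2.02 (median -2.35) with cyfluthrin, with 2 arrays on each side of the control range.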

How the data were processed

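The deposited scanner files, 1 per array, give an intensity for each spot, the processed signal, which Agilent Feature Extraction had background-subtracted and detrended, with no normalization between arrays. That software had version 10.7.1.1 according to the headers, while the submitters' processing notes name 9.1. A value table deposited by the authors is on a log2 scale. Its columns had r of 0.9944 to 0.9988 with quantile-normalized log2 signals centred on each probe's median over the 16 arrays, and column medians of -0.038 to 0.048; its direction and log2 scale matched, and its steps are not given in the sources. The number of arrays limits the precision.

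Control spots were left out, the 75th percentile over contig spots was subtracted per array on the log2 scale, and spots of a contig were averaged. Means were compared by lmFit and eBayes (limma 3.58.1, R 4.3.3; 2-sided, 8 against 8 arrays, no covariate, Benjamini-Hochberg over 7574 contigs with at least 50% of their spots well above background on at least 8 arrays, threshold 0.05). The fit and the ratio were tested on simulated data. Normexp (offset 50) used the median signal. Spike-in scaling used 6 of 10 probes.

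The members, their rule and the comparisons were chosen with earlier results of these data known. Contigs named by rule were the 5 highest ratios, ranks 100 and 101, the 2 highest cyfluthrin SDs, the 3 whose lowest ratio with 1 array left out was highest, the 2 greatest rises and 2 greatest falls past the limma threshold, and the centre of each group; contig_5556 and contig_3234 were named after their values were seen. Alternatives were other scalings, background correction, the authors' table, outlier spots set aside, filters, another measure of spread, single spots, array weights, blocks and each array left out.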

Additional observations from a re-analysis of the deposited data

Results flagged for a closer look

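In 42 sets of 8 arrays (the levels of the named contigs in each group, and the median profile of each of the 4 groups of members), the highest or lowest array was set against the others, and called far off when its gap to the nearest took more than 0.526 of the whole range. Chance gives about 1 in 20 such calls for a set of 8. There were 8 calls, 7 in cyfluthrin and 1 in control; members chosen for a high SD with cyfluthrin had to give more there, so nothing is read from that imbalance.

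The level of contig_2155 was -4.46 on cyfluthrin replicate 3 and 0.98 to 1.47 on the other 7. That of contig_4055 was 2.76 on replicate 8 and -0.56 to -0.26 elsewhere. For contig_2352 replicate 7 read -0.16 and the others 0.83 to 1.57. For contig_6500 replicate 4 read -4.11 and the others -1.76 to -0.015. For contig_2001 it was replicate 2, at -0.55, that stood above the others at -3.01 to -1.98. On replicate 4, contig_5929 read -3.35 against 0.55 to 0.76 on the other 7, and the median of group C, to which it belongs, was -2.17 against -0.13 to -0.00085. The control call was also of contig_5929, at -0.13 on control replicate 1 against 0.64 to 1.28 on the other 7 control arrays.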

How the results depend on the processing

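Which contigs rank highest depended on the processing. Of the 100 members, 58 stayed among the 100 highest ratios under quantile normalization, 51 in the authors' value table, 45 under median scaling, 21 under spike-in scaling, 22 with the median absolute deviation and 6 after normexp background correction, where the median ratio of all contigs was 2.48 in place of 1.21. At least 67 stayed with outlier spots set aside, slide means removed, replicate 1 included, a filter of 8 arrays, or, chosen after seeing the data, discordant spots set aside (80 stayed, with 3 of the 22 members with unlike spots). With each array of the ratio left out in turn 65 (without control replicate 3) to 88 stayed; leaving out cyfluthrin replicate 1, which the ratio does not use, keeps all 100 by construction. Of the 76 members with 2 spots, 48 stayed among as many highest by the first spot alone, 50 by the second and, chosen after seeing the data, 47 by the lower of both ratios. The members' median ratio was 3.44 under quantile normalization, 2.78 under median scaling, 2.01 under spike-in scaling, 4.75 after normexp, 3.28 in the authors' table, 3.56 with outlier spots set aside, 3.45 with the median absolute deviation, 3.38 with discordant spots set aside and 3.44 to 3.94 with each array left out. The first component's share was 39.2% under quantile normalization, 42.0% under median scaling, 47.8% after normexp and 47.1% with discordant spots set aside.

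Of the members, 1 was higher under spike-in scaling, 1 after normexp (which moved the median change of all contigs to 0.27), 8 in the authors' table, 7 with array weights and 8 with discordant spots set aside, and 0 were lower under spike-in scaling (limma, with 1063 contigs at an unadjusted p under 0.05) and 1 after normexp. With each array left out, 4 to 6 were higher and 4 to 12 lower, 12 without cyfluthrin replicate 4, and 412 to 785 contigs differed in all, 785 without that array. Over all tested contigs, 348 differed under median scaling, 180 under spike-in scaling and 191 after normexp, in place of 559. Samples of the same replicate number deviated together with r of -0.27 to 0.46, over 0.1 in 4 of 8 pairs. No pairs of unlike number were set beside them, and samples of the same number share a slide. Whether the numbers pair the samples therefore cannot be told. With the replicate block 362 contigs differed, and 3 members were higher and 3 lower. The number outside the control range on replicate 1 stayed at 69 to 73.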
